A study of Mus musculus with 3 samples.

Results

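The genes *Gata4*, *Gata5*, *Gata6*, *Tbx5*, *Nkx2-5*, *Hand1*, *Hand2*, *Isl1* and *Mef2c* encode the transcription factors best known for specifying cardiac progenitors, and they are described here across the germ layers of the gastrulating mouse embryo. They were taken by symbol, 9 out of 17633 genes detected in the series, and all 9 had reads in each of the 3 libraries. The libraries were made from the endoderm, the mesoderm and the epiblast of ICR mouse embryos at E7.5, with no mutation or treatment named for any of them. The study took the embryonic region without the extra-embryonic region, separated the layers with enzymes and needles, and sequenced them in order to compare splicing between layers. Its epiblast sample held neuroectoderm together with the primitive streak. RNA of many embryos was pooled into 1 library per layer, so each comparison below is between 2 libraries and has no replicate check.

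The heart forms from mesoderm that leaves the primitive streak during gastrulation, moves forward and settles as the cardiac crescent. GATA zinc finger factors, the homeodomain factor Nkx2-5, the T-box factor Tbx5, the bHLH factors Hand1 and Hand2, the LIM homeodomain factor Isl1 and the MADS box factor Mef2c act together there on the same heart genes, with Tbx5 best known for the first heart field and Isl1 for the second. Gata4 and Gata6 also work outside the heart, since visceral, parietal and definitive endoderm depend on them.

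Reads on genes came to 41.7 M for endoderm, 40.8 M for mesoderm and 42.7 M for epiblast. The deposited RPKM scales a gene's reads for its length and for these totals, so levels of different genes can be set side by side. Intervals given with a level or a ratio are exact 95% intervals of the reads and cover counting error only. The layer labels were compared with marker lists, which were chosen with earlier results of these data known and so give no independent check. In these lists, 11 of 12 endoderm markers, 9 of 10 mesoderm markers and 7 of 8 epiblast markers were highest in their own layer. The exceptions were *Sox7*, *Msgn1* and *Fgf5*. In such bulk samples, fewer cells of a type and less RNA per cell cannot be told apart.

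In mesoderm, all 9 cardiac factors were above 1 RPKM and 7 were above 5 RPKM. In endoderm 3 genes were above 1 RPKM, which were *Gata4*, *Gata6* and *Isl1*, and in epiblast 3 were, which were *Hand1*, *Gata4* and *Isl1*. Mesoderm held the highest level of 8 of the 9 genes, and endoderm held the highest level of *Gata4*. Summed over the 9 genes, endoderm held 83.1, mesoderm 347.5 and epiblast 39.1 RPKM. Mesoderm thus carried 74.0% of the RPKM summed over the 3 layers, endoderm 17.7% and epiblast 8.33%.

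**Figure D1:**
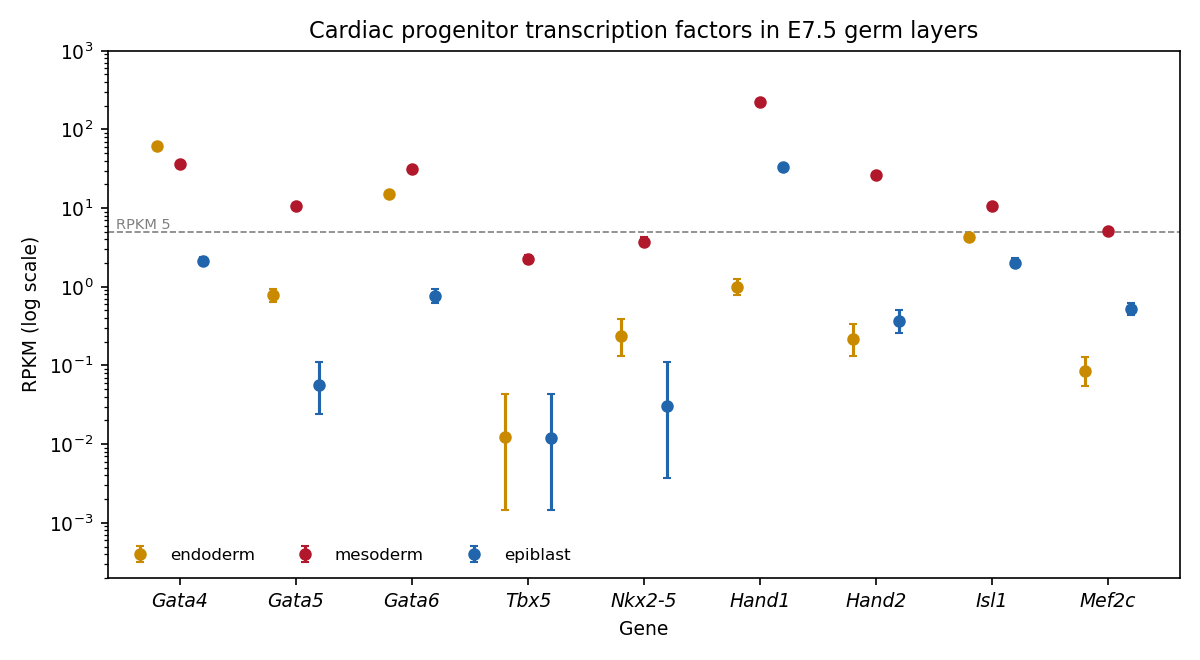
RPKM on a log scale for each of the 9 genes in endoderm (ochre), mesoderm (red) and epiblast (blue), 1 library per layer, with bars for the exact 95% counting interval and a dashed line at 5 RPKM. The red point is the highest for every gene but *Gata4*, and *Hand1* in mesoderm, at 221.7 RPKM, is the highest point of all.

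The order of the genes differed between layers. In mesoderm it ran from *Hand1* at 221.7 RPKM through *Gata4* at 36.0, *Gata6* at 31.2 and *Hand2* at 26.2 to *Gata5* at 10.7 and *Isl1* at 10.6, followed by *Mef2c* at 5.08, *Nkx2-5* at 3.74 and *Tbx5* at 2.26. Only *Gata5* (10.2 to 11.3) and *Isl1* (9.99 to 11.3) had overlapping intervals among neighbours in that order. In endoderm *Gata4* led at 61.4 RPKM, ahead of *Gata6* at 15.0 and *Isl1* at 4.31. The intervals of *Hand1* and *Gata5* overlapped there, as did those of *Nkx2-5* and *Hand2*. In epiblast *Hand1* led at 33.2 RPKM, and *Gata4* at 2.15 and *Isl1* at 2.02 came next with overlapping intervals. *Mef2c* and *Hand2* overlapped in epiblast too, and the 3 lowest genes, *Gata5*, *Nkx2-5* and *Tbx5*, could not be ordered from 8, 2 and 2 reads.

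*Gata4*, a zinc finger factor needed for the ventral heart tube and for endoderm, gave 8678 endoderm, 4995 mesoderm and 312 epiblast reads, which are 61.4, 36.0 and 2.15 RPKM. It was high in endoderm and mesoderm and low in epiblast. The endoderm level was 1.70 times (1.65 to 1.76) the mesoderm level, a difference that did not meet the Fold Change criterion of 2 used here, although the exact test of the reads gave an FDR of 6.92e-204. Mesoderm was 16.7-fold (14.9 to 18.8) and endoderm 28.5-fold (25.5 to 32.0) above epiblast, and both differences met the criteria. By RPKM, *Gata4* ranked 1293 from the top in endoderm, 2211 for mesoderm and 9782 for epiblast.

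*Gata6*, which acts with *Gata4* in heart and endoderm, had 1997, 4067 and 105 reads in endoderm, mesoderm and epiblast, or 15.0, 31.2 and 0.770 RPKM. Its order between the first pair was the opposite of that of *Gata4*. Mesoderm was 2.08-fold (1.97 to 2.19) above endoderm, just past the Fold Change criterion, and 40.5-fold (33.4 to 49.6) above epiblast. Endoderm was 19.5-fold (16.0 to 24.0) above epiblast. *Gata5*, the member of the trio linked to endocardium, had 108, 1443 and 8 reads, or 0.785, 10.7 and 0.0567 RPKM. It was far higher in mesoderm than in either other layer, 13.6-fold (11.2 to 16.7) above endoderm and 188.6-fold (95.4 to 437.6) above epiblast. Both differences met the criteria. The 13.8-fold (6.78 to 32.9) ratio of endoderm to epiblast did not, because neither level reached 5 RPKM.

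The summed level of *Gata4*, *Gata5* and *Gata6* was alike in endoderm and mesoderm, at 77.2 and 77.9 RPKM, against 2.98 in epiblast. The make-up of that sum was not alike. In endoderm *Gata4* supplied 79.5% of it, *Gata6* 19.4% and *Gata5* 1.02%, whereas in mesoderm the shares were 46.3%, 40.0% and 13.7%. The ratio of *Gata4* to *Gata6* was 4.09 (3.90 to 4.30) for endoderm, 1.16 (1.11 to 1.21) for mesoderm and 2.80 (2.24 to 3.52) for epiblast. These 3 intervals do not overlap.

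The sharing of *Gata4* and *Gata6* between endoderm and mesoderm was set beside the markers of each layer. The 12 embryonic and visceral endoderm markers, which include the apolipoprotein genes *Apoa1* and *Apob*, had in mesoderm a median of 0.0569% of their endoderm RPKM, and 9 of the 12 were under 1%. Their summed level was 6541, 10.7 and 7.09 RPKM in endoderm, mesoderm and epiblast, and none was at 0 in any layer. *Gata4* stood at 58.7% in mesoderm. The only endoderm marker as high was *Sox7*, a SOX factor that endothelial cells also use, at 108.3%, and *Foxa2* was next at 3.17%. In the other direction, the 10 mesoderm markers had in endoderm a median of 7.10% of their mesoderm RPKM, from *Kdr* at 0.668% to *Cdh2* at 26.9%. *Gata6* at 48.2% and *Isl1* at 40.6% lay above that range, as did *Gata4*, while *Hand1* at 0.451% and *Tbx5* at 0.539% lay below it. The 9 parietal endoderm markers summed to 340.4, 223.8 and 157.8 RPKM in endoderm, mesoderm and epiblast, with 6 of them highest in endoderm and none at 0, and their part in the *Gata4* and *Gata6* levels was not tested.

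**Figure D2:**
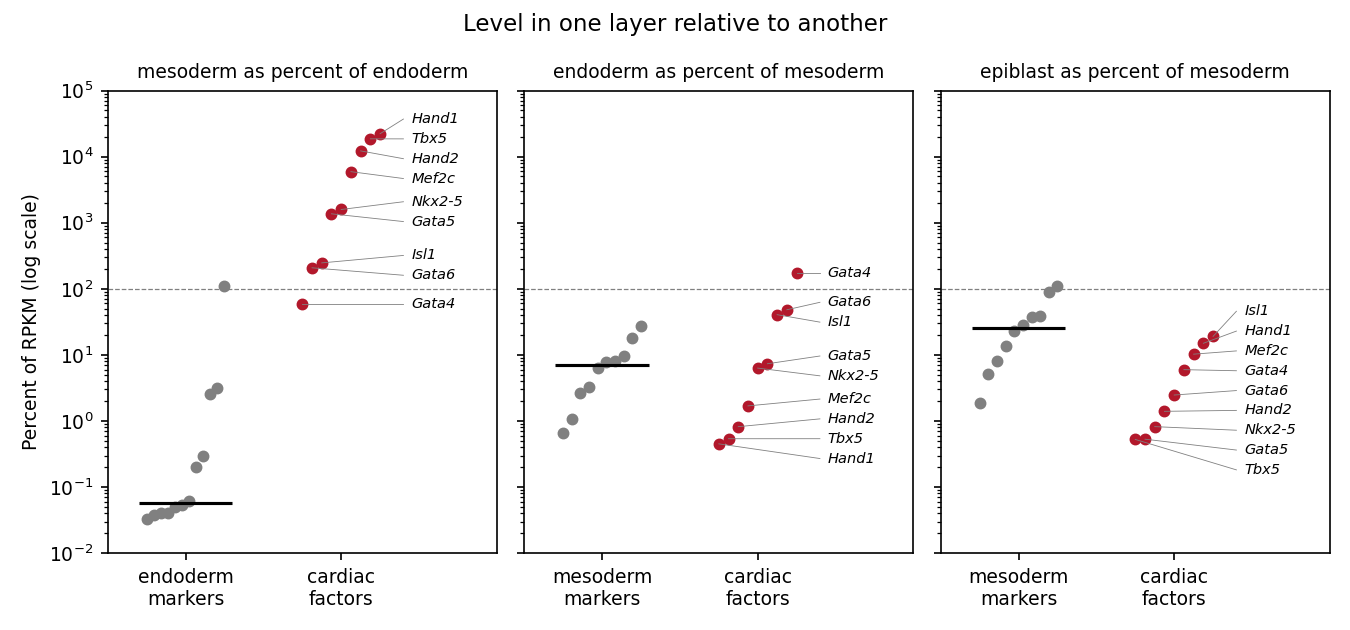
Level in one layer as a percent of the RPKM in another, on a log scale, for the markers of the named layer (grey, with a line at their median) and the 9 cardiac factors (red), with a dashed line at 100%. In mesoderm *Gata4* kept 58.7% of its endoderm level, against a median of 0.0569% for the endoderm markers, and in epiblast all 9 genes lay below the median of the mesoderm markers, 25.4%.

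*Hand1*, a bHLH factor of lateral and extra-embryonic mesoderm, trophoblast and the left ventricle, gave 79 endoderm, 17190 mesoderm and 2692 epiblast reads, or 0.999, 221.7 and 33.2 RPKM. It was the most abundant of the 9 genes in mesoderm, where it ranked 312 from the top among all genes, and in epiblast, where it ranked 2359. Mesoderm was 221.9-fold (177.9 to 280.4) above endoderm and 6.68-fold (6.41 to 6.96) above epiblast. Epiblast was itself 33.2-fold (26.6 to 42.1) above endoderm, so that *Hand1* met the criteria in every pair. Among the 9 genes it was the one called higher in epiblast than in endoderm.

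*Hand2*, its relative best known for the right ventricle and the limb, had 20, 2392 and 35 reads, or 0.215, 26.2 and 0.367 RPKM. Mesoderm stood out, 122.0-fold (78.8 to 200.02) above endoderm and 71.4-fold (51.2 to 102.8) above epiblast. Endoderm and epiblast did not differ beyond counting error, with a ratio of 1.71 (0.958 to 3.12) of epiblast to endoderm and an FDR of 0.0930 from the exact test. *Hand1* exceeded *Hand2* 8.46 times (8.11 to 8.84) in mesoderm and 90.6 times (65.0 to 130.3) in epiblast. Together they made up 247.9 RPKM in mesoderm, which is more than the other 7 genes combined. Of the exonic bases of *Hand2*, 19.6% overlap the antisense gene *Hand2os1*, and since strand use in counting is not stated, reads of the pair cannot be told apart.

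*Hand1* in epiblast was at 15.0% of its mesoderm level, and the 10 mesoderm markers were at a median of 25.4% there, from *Kdr* at 1.89% to *Msgn1*, a gene of the primitive streak and presomitic mesoderm, at 110.6%. Their summed level was 48.7, 476.5 and 159.0 RPKM in endoderm, mesoderm and epiblast, with none at 0. Trophoblast markers, 6 of 9 of which had reads, summed to 45.9, 28.5 and 39.7 RPKM, with 3 highest in endoderm, 0 in mesoderm and 3 in epiblast. *Cdx2* was at 18.4, 20.9 and 37.1 RPKM, *Plac1* at 19.9, 6.25 and 0.569 and *Esx1* at 7.11, 0.0606 and 0.130, and the order of mesoderm among the layers differed between them. *Tpbpa*, *Prl2c2* and *Prl3d1*, which define differentiated trophoblast, are not listed in any table, and whether the counting annotation held them is not known. Markers of extra-embryonic mesoderm and allantois summed to 4.10, 113.8 and 9.26 RPKM, with 6 of 7 highest in mesoderm. Most of that sum was *Pmp22* at 100.9 RPKM, whereas the allantois gene *Tbx4* had 1, 127 and 13 reads, *Hoxa13* had 4, 5 and 2, and *Hoxa11* was at 0 outside mesoderm. The part of trophoblast, extra-embryonic mesoderm or allantois in the levels of *Hand1* and *Hand2* was not tested.

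*Tbx5*, a T-box factor of the first heart field, atria and forelimb, gave 2 endoderm, 364 mesoderm and 2 epiblast reads. Reads covered 90.0% of the gene length in mesoderm and 4.57% in each other layer. At 2.26 RPKM in mesoderm it was the lowest of the 9 genes there. The ratio of mesoderm to endoderm was 185.6 (51.0 to 1538) and that of mesoderm to epiblast 190.3 (52.3 to 1577). The FDR of the exact test was 9.78e-107 and 2.68e-108, but the gene did not meet the RPKM criterion in either pair.

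*Nkx2-5*, the NK homeodomain factor whose loss stops heart looping, had 15, 233 and 2 reads, or 0.236, 3.74 and 0.0307 RPKM. Mesoderm was again far above the other layers, at 15.8 times (9.41 to 28.8) endoderm and 121.8 times (33.3 to 1012) epiblast, and again the RPKM criterion was not met. Endoderm exceeded epiblast 7.69 times (1.79 to 69.3), and the exact test gave an FDR of 0.00171, so this pair met none of the criteria but Fold Change. In mesoderm, *Nkx2-5* was 3.74 RPKM where the next gene up, *Mef2c*, was just inside the criterion at 5.08.

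*Isl1*, the LIM homeodomain factor of the second heart field and of pharyngeal endoderm, had 453, 1095 and 218 reads, or 4.31, 10.6 and 2.02 RPKM. As a ratio, its levels in the highest and lowest layers differed less than those of any other of the 9 genes. Mesoderm was 2.46-fold (2.21 to 2.76) above endoderm and 5.25-fold (4.54 to 6.10) above epiblast, and both differences met the criteria. The ratio of endoderm to epiblast was 2.13 (1.81 to 2.52), below 5 RPKM in both. *Mef2c*, a MADS box factor that partners GATA, Hand and Isl1 proteins in heart and skeletal muscle, had 23, 1334 and 143 reads, or 0.0859, 5.08 and 0.521 RPKM. Mesoderm was 59.1-fold (39.2 to 93.6) above endoderm and 9.75-fold (8.20 to 11.7) above epiblast. The gene sat just past the RPKM criterion, and epiblast exceeded endoderm 6.06 times (3.89 to 9.87) below it.

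The upstream sequences of *Hand2* and *Isl1* are shown because both genes were called higher in mesoderm than in both other layers and both hold letters that GATA factors are known to bind. Each line gives the 250 bases before the RefSeq start on GRCm38.p6, 5′ to 3′ on the strand of the gene. For *Hand2* this is chr8:57320733-57320982 on the plus strand, part of it covered by exons of *Hand2os1*, and for *Isl1* chr13:116309689-116309938 on the minus strand. Capitals mark GATA with A or T before it and A or G after it, read on either strand.
Hand2: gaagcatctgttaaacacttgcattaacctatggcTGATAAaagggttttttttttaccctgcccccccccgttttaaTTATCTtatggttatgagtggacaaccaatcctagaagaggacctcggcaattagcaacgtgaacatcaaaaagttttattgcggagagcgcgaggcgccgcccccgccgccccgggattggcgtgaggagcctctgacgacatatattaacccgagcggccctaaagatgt
Isl1: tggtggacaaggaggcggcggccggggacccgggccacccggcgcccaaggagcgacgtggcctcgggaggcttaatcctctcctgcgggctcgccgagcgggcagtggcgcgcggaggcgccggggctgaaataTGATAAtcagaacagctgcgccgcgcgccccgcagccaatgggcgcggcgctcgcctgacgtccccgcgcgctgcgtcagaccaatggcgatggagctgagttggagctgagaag

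The *Hand2* sequence holds 2 such matches, which begin 215 and 172 bases before the start, and the *Isl1* sequence holds 1, which begins 115 bases before it. RefSeq promoters were matched for 5 of the 9 genes, with 7 promoters in all, and the other 5 promoters, of *Gata5*, *Nkx2-5* and *Mef2c*, hold none of these letters in the 250 bases. Of all 32851 promoters, 26.5% hold at least 1 such match, so a match is common and is given as a description of the sequence.

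The differential expression criteria of the study, RPKM>5 in at least 1 library of the pair, Fold Change>2 and FDR<0.001 by Audic and Claverie's exact test on the reads, were applied to all genes in each pair. Of the 9 cardiac factors, 6 were called higher in mesoderm than in endoderm and 0 higher in endoderm, against 4.41% and 7.44% of the 17194 genes tested. Between mesoderm and epiblast, 7 were called higher in mesoderm and 0 in epiblast, against 2.58% and 2.45% of 17100 genes. Between endoderm and epiblast, *Gata4* and *Gata6* were called higher in endoderm and *Hand1* higher in epiblast, against 8.02% and 4.58% of 17267 genes. The test compares 2 libraries, not the layers as conditions, and with edgeR's exact test, in which replicates were assumed to vary by a biological coefficient of 0.4, the counts for mesoderm fell to 3 and 3.

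The median log2 ratio of the 9 genes was 3.99 for mesoderm over endoderm, 5.34 for mesoderm over epiblast and 1.09 for endoderm over epiblast, where the medians over all genes with reads in both libraries were 0.11, 0.01 and -0.10. *Gata5*, *Gata6*, *Hand1*, *Hand2*, *Isl1* and *Mef2c* were called in mesoderm against both other layers. Over all genes this held for 243, or 1.38%. *Hand1* ranked 8 by mesoderm RPKM among those 243, *Gata6* 52, *Hand2* 62, *Gata5* 147, *Isl1* 150 and *Mef2c* 243. With edgeR's exact test at a coefficient of 0.4, *Hand2* was the 1 cardiac factor called against both. *Gata6* was just inside the Fold Change criterion between mesoderm and endoderm, at 2.08. With libraries scaled by the median of ratios, *Gata6*, at 1.92, and *Mef2c*, then under 5 RPKM, were lost, and 4 of the 6 genes were called against both.

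**Figure D3:**
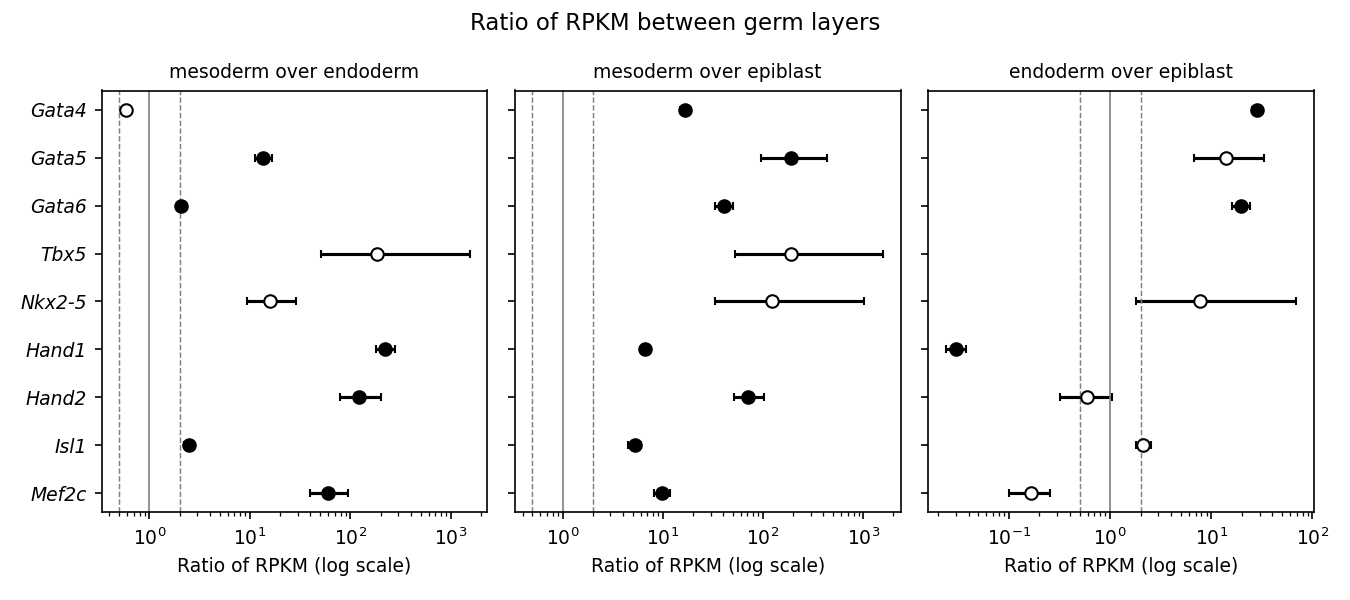
Ratio of RPKM between layers on a log scale for each gene, with exact 95% counting intervals, filled where the difference met the criteria and open where it did not, and dashed lines at ratios of 0.5 and 2. Every ratio of mesoderm to another layer lies above 1 except that of *Gata4* to endoderm, the highest is that of *Hand1* to endoderm at 221.9, and *Tbx5* is left out of the last panel because it had 2 reads in both libraries.

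The make-up of cardiac factor RNA differed by layer. In endoderm *Gata4* supplied 73.9% of the summed RPKM of the 9 genes, *Gata6* 18.1% and *Isl1* 5.18%. In mesoderm *Hand1* supplied 63.8%, *Gata4* 10.4%, *Gata6* 8.97% and *Hand2* 7.54%, and the remaining 5 genes had small shares. Epiblast had the narrowest make-up, with *Hand1* at 84.8%, *Gata4* at 5.50% and *Isl1* at 5.16%.

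**Figure D4:**
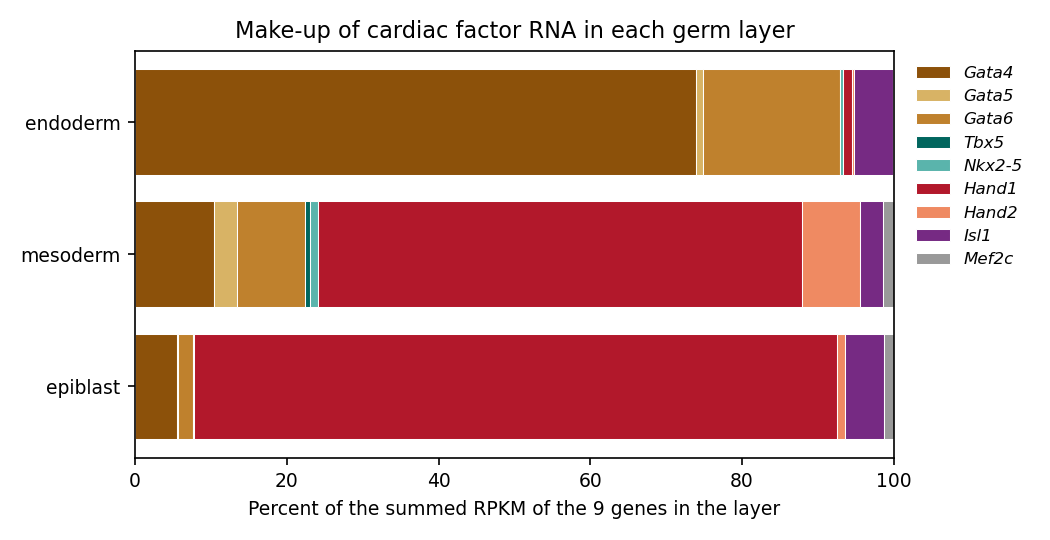
Percent of the summed RPKM of the 9 genes that each gene supplied, as a stacked bar for each layer. *Gata4* takes 73.9% of the endoderm bar, and *Hand1* takes 63.8% of the mesoderm bar and 84.8% of the epiblast bar.

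Factors of nascent and cardiogenic mesoderm, listed here as upstream mesoderm factors, were measured in the same libraries. Whether each acts on the 9 genes was not tested. Of 14 upstream mesoderm factors, 9 were called higher in mesoderm than in endoderm and 0 lower, and 8 were called higher in mesoderm than in epiblast and 3 lower. *Mesp1*, the bHLH factor that marks the earliest cardiac mesoderm, was at 1.36, 50.5 and 11.6 RPKM in endoderm, mesoderm and epiblast. The forkhead factors *Foxc2*, at 1.74, 55.5 and 1.76 RPKM, and *Foxh1*, a partner of SMADs at 72.2, 252.9 and 125.4 RPKM, were also called in mesoderm against both. The 3 genes called higher in epiblast than in mesoderm were *T*, *Eomes* and *Mixl1*, which mark the primitive streak, with *T* at 93.7, 74.8 and 228.5 RPKM. The median log2 ratio over the 14 genes was 2.69 against endoderm and 1.57 against epiblast.

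Signals that induce or restrain heart formation were divided between layers. Of 20, 8 were called higher in mesoderm than in endoderm and 2 lower, and 10 were called higher in mesoderm than in epiblast and 3 lower. *Bmp4*, a BMP ligand that promotes cardiac fate, was at 1.11, 33.6 and 2.69 RPKM in endoderm, mesoderm and epiblast, and the Nodal antagonist *Lefty2* at 2.56, 40.2 and 15.3. The 2 called higher in endoderm than in mesoderm were secreted antagonists, *Cer1* at 137.9, 47.4 and 0.659 RPKM and the Wnt inhibitor *Dkk1* at 36.1, 8.43 and 3.79. Of 11 surface and enzyme genes of cardiac progenitors, 7 were called higher in mesoderm than in endoderm and 1 lower. Among them were the apelin receptor *Aplnr*, at 16.6, 101.5 and 33.7 RPKM, the retinoic acid enzyme *Aldh1a2*, at 5.20, 93.7 and 27.3, and the cadherin *Cdh2*, at 19.4, 71.8 and 20.03. *Fgfr1*, at 22.8, 77.1 and 73.5 RPKM, was called against endoderm and not against epiblast.

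Of 38 other cardiac transcription factors, 10 were called higher in mesoderm than in endoderm and 4 lower, and 8 were called higher in mesoderm than in epiblast and 0 lower, with median log2 ratios of 0.71 and 1.04. *Smarcd3*, a heart subunit of the BAF chromatin remodeller that works with *Tbx5* and *Gata4*, was at 1.42, 55.2 and 2.19 RPKM in endoderm, mesoderm and epiblast, although 48.2% of its exonic bases overlap *Chpf2*. The GATA cofactor *Zfpm1* was at 20.7, 38.7 and 4.90 RPKM and was called against epiblast. *Irx3*, at 8.96, 25.9 and 51.1 RPKM, was called against endoderm and not against epiblast.

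Of 25 contractile and cardiomyocyte genes, 8 passed 5 RPKM in any layer and 5 were called higher in mesoderm, the same 5 against endoderm and against epiblast. These were the atrial light chain *Myl7*, at 5.33, 103.3 and 7.97 RPKM in endoderm, mesoderm and epiblast, the actins *Acta2* and *Actc1*, at 12.0 and 9.37 RPKM in mesoderm, the troponin *Tnni1*, at 10.9 RPKM there, and the cardiac troponin *Tnnt2*, at 0.160, 7.45 and 0.0779 RPKM. The troponin *Tnnc1*, which also passed 5 RPKM, was highest in endoderm, at 6.28, 3.38 and 0.300 RPKM. It was called higher in endoderm than in epiblast, and was not called between mesoderm and either other layer. *Tnnt2* and *Tnnc1* were named after their values were seen. The median log2 ratio over the list was 0.61 against endoderm and 0.87 against epiblast, and the difference from the 9 factors was not tested.

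**Figure D5:**
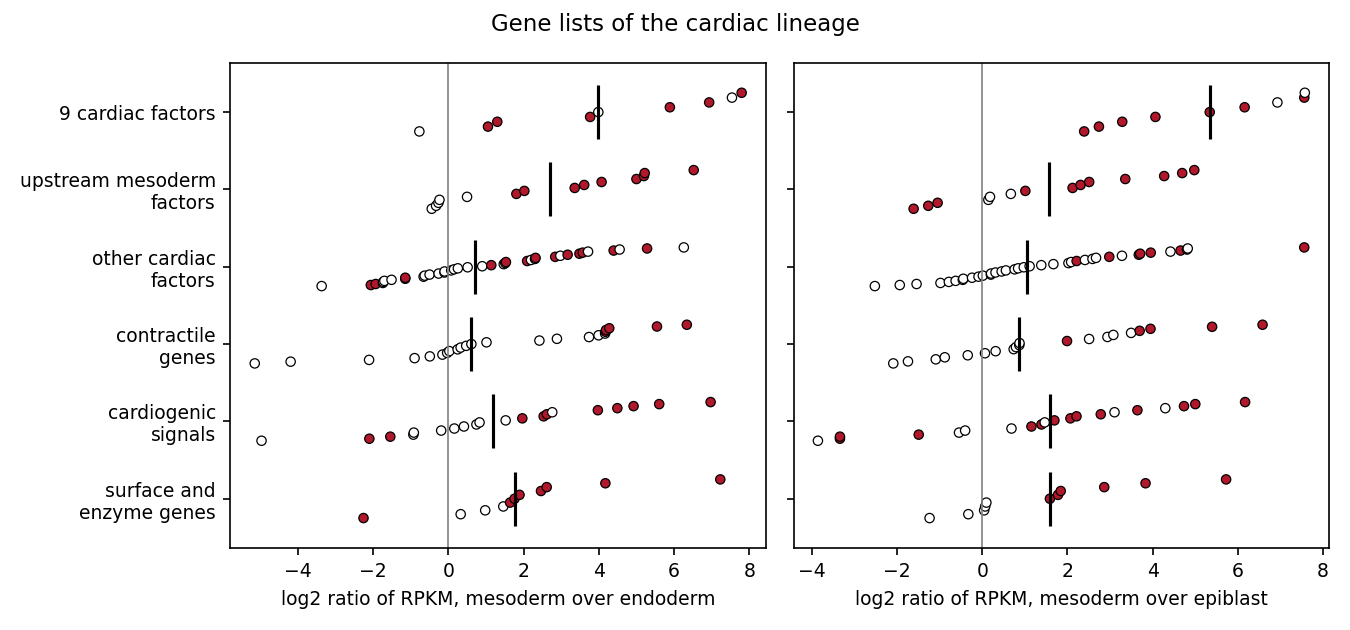
log2 ratio of RPKM of mesoderm over endoderm (left) and over epiblast (right) for the genes of 6 lists with reads in both libraries, red where the difference met the criteria, with a vertical line at the median of each list. The medians of the 9 cardiac factors, 3.99 and 5.34, lie to the right of the medians of the 5 other lists drawn.

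The other members of each gene family were examined as well. Of the 3 remaining GATA genes, *Gata2* passed 5 RPKM and met the criteria, at 6.01, 7.93 and 1.71 RPKM in endoderm, mesoderm and epiblast, and was called in both against epiblast. *Gata3*, at 5.02, 2.53 and 3.49 RPKM, was called in no pair. *Mef2d*, at 15.8, 10.2 and 5.21 RPKM, and *Mef2a*, at 6.54, 5.47 and 3.05, were called higher in endoderm than in epiblast. *Mef2d* exceeded *Mef2c* 184.0 times (122.2 to 291.1) in endoderm, 9.998 times (8.30 to 12.1) in epiblast and 2.01 times (1.85 to 2.19) in mesoderm. Of 6 NK2 genes related to *Nkx2-5*, none reached 1 RPKM in any layer. Of 11 LIM homeodomain genes related to *Isl1*, *Lhx1* alone passed 5 RPKM, at 15.3, 13.0 and 2.28.

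T-box relatives of *Tbx5* were spread over the layers. Of 16, 3 were called higher in mesoderm than in endoderm and 1 lower, and 3 were called higher in mesoderm than in epiblast and 2 lower. *Tbx3*, at 37.1, 16.8 and 3.62 RPKM in endoderm, mesoderm and epiblast, was highest in endoderm, *Tbx6*, a gene of presomitic mesoderm, was at 3.77, 38.7 and 34.1, and *Eomes* was at 9.51, 7.01 and 14.5. *Tbx1*, a pharyngeal gene of the second heart field, was at 0.594, 7.07 and 0.553 RPKM, and *Mga*, at 9.91, 11.4 and 10.5, was called in no pair. *Tbx20*, which acts with *Tbx5* in the heart and was named after its values were seen, was at 1.60, 11.5 and 0.739 RPKM and was called in mesoderm against both. Of the 9 bHLH genes related to *Hand1* and *Hand2*, the 3 that passed 5 RPKM were called in mesoderm against both layers, with *Twist1* at 5.57, 53.2 and 2.36 RPKM, *Tcf15* at 0.582, 21.95 and 0.666 and *Tcf21* at 0.678, 14.2 and 0.0755. The median log2 ratio of those bHLH genes with reads in both libraries was 4.32 over endoderm and 4.59 over epiblast, and that of the 10 mesoderm markers was 3.82 and 1.98.

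To find the genes most alike in pattern, the shares of each gene's summed RPKM in the 3 layers were compared with those of the 9135 genes above 5 RPKM in any library, by Euclidean distance over 3 layers. *Hand2* lay nearest to *Tal1*, a blood and endothelial regulator, at a distance of 0.00263, and then to *Kdr*, the receptor that marks cardiac and vascular mesoderm, at 0.00595. *Hand1* lay nearest to *Wnt2* (0.00486) and *Col1a1* (0.00492), *Gata6* to *Nrp1* (0.00806) and *Tnnt3* (0.0192), and *Gata4* to the parietal endoderm gene *Pth1r* (0.0242). The 9 genes were also near each other in part. *Nkx2-5* lay nearest to *Gata5* (0.0115) and then *Tnni1* (0.0176), and *Tbx5* lay nearest to *Hand2* (0.0143) and then *Tal1* (0.0167). *Gata5* lay nearest to *Tnni1* (0.0243) and *Adrb3* (0.0299), *Isl1* to *Ppic* (0.00811) and *Vasn* (0.0177), and *Mef2c* to *Tmem119* (0.0115) and *Crabp1* (0.0141).

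Markers of blood and endothelium, which arise beside cardiac mesoderm, were measured as well. Of 12, 3 were called higher in mesoderm than in endoderm and 3 higher than in epiblast, and 9 in each pair were not called. They summed to 9.44, 86.7 and 7.41 RPKM in endoderm, mesoderm and epiblast, and 9 of 12 were highest in mesoderm. *Etv2* made up the most of it, at 47.2 RPKM in mesoderm, while *Hba-x* is not listed in any table and *Hbb-bh1* had reads in mesoderm alone. *Runx1*, with 1086, 156 and 35 reads, and *Gata1*, with 246, 184 and 51, were highest in endoderm. Their part in the levels of *Hand2*, *Gata5* or any other cardiac factor was not tested. Maternal decidua markers summed to 10.1, 25.6 and 27.8 RPKM, with 1 of 8 highest in endoderm, 2 in mesoderm and 4 in epiblast. *Alpl*, at 3.09, 16.6 and 21.8 RPKM, made up most of the sum in mesoderm and epiblast. *Des*, at 0.311, 4.95 and 2.71 RPKM, is also among the contractile genes. *Igfbp1* had 332, 0 and 0 reads and was called higher in endoderm than in both, and *Prl8a2*, which defines decidua, is not listed in any table. Whether these sums came from decidua was not tested.

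On the GRCm38 genome with the GENCODE M21 annotation, *Gata4* lies at chr14:63198922-63271692 and *Hand1* at chr11:57828705-57832818, both on the minus strand, and *Tbx5* lies at chr5:119832668-119885219 on the plus strand. *Isl1*, at chr13:116298281-116309689 on the minus strand, and *Mef2c*, at chr13:83504034-83667080 on the plus strand, share a chromosome. *Hand2*, at chr8:57320983-57324633, and *Gata6*, at chr18:11052064-11085635, are on the plus strand. *Nkx2-5* lies at chr17:26838664-26845009 and *Gata5* at chr2:180325133-180334699, both on the minus strand. *Mef2c* has 31 annotated transcripts with 27 starts, while *Gata5* and *Hand2* have 1 each, and the deposited values give 1 total per gene. An antisense gene, *Gata5os*, overlaps 7.87% of the exonic bases of *Gata5*.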

How the data were processed

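RNA-seq of 3 germ layers, 1 library each, was used. From paired-end HiSeq reads the authors trimmed adapters, dropped reads of low quality and deposited, per gene, the count of uniquely mapped reads, the RPKM, the gene length and the percent of that length covered by reads. The submitters' processing notes name TopHat, mm10 and mm9. The counting program, its annotation and its use of strand are not given in the sources used here. The RPKM could be recomputed from reads, length and library total to within a relative difference of 2.03e-07.

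Genes missing from a library's table were given 0 reads, a count that allows up to 3. Each pair of libraries was tested over every gene with a read in either, by Audic and Claverie's exact test (two-sided) with Benjamini-Hochberg adjustment, and a gene was called at RPKM>5 in at least 1 library, Fold Change>2 and FDR<0.001. Ratios carry exact (Clopper-Pearson) 95% intervals and levels exact Poisson intervals, which hold no biological spread. A ratio against 1 to 3 reads is given with its interval, and no direction is read from a ratio where both libraries had 3 reads or fewer. Since 1 library per layer leaves no dispersion to estimate, the quasi-likelihood test of edgeR could not be fitted. Its exact test, given a biological coefficient of variation of 0.2 or 0.4, served as an alternative. Other alternatives were RPKM>1, RPKM>10 or no RPKM criterion, Fold Change>4, Benjamini-Yekutieli adjustment, adjustment over genes with at least 10 reads, 4 other scalings (same RPKM total, median of ratios, same upper quartile, TMM), pseudocounts of 0.1 and 1, and reads in place of RPKM.

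The 9 genes and all gene lists were chosen with earlier results of these data known. Named genes were the 9, up to 4 genes of each other list with the highest RPKM among those called in any pair, family members above 5 RPKM, genes with overlapping exons that bear on a value, and the 2 genes nearest in pattern to each of the 9, of which some are not reported here. Of 214 listed genes, 209 were listed in a table, 1 of them through an older symbol, and 212 matched the GENCODE M21 annotation. Promoters came from RefSeq on GRCm38.p6, and those of *Gata4*, *Gata6*, *Tbx5* and *Hand1* were not analysed here, nor were the microarray, qPCR and splicing data. Tests ran in R 4.3.3 with edgeR 4.0.16 and DESeq2 1.42.0 (size factors), and in Python 3.11.15 with SciPy 1.17.1, numpy 2.4.6, pandas 2.3.3 and matplotlib 3.10.9.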

Additional observations from a re-analysis of the deposited data

How the results depend on the processing

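No paired analysis was possible because each layer has 1 library, and for the same reason no replicate could be left out. Without the RPKM criterion, 4 of the 9 genes were called higher in endoderm than in epiblast, adding *Gata5* and *Isl1*, and 2 higher in epiblast, adding *Mef2c*. With edgeR's exact test at a coefficient of 0.4, 3 were called higher in mesoderm than in endoderm, 3 higher than in epiblast and 1 higher than in both, and at 0.2, as with Fold Change>4, the calls of *Gata6* and *Isl1* against endoderm were lost. With RPKM>1, *Tbx5* and *Nkx2-5* were added in both mesoderm pairs, for 8 and 9 genes, and *Isl1* between endoderm and epiblast. *Mef2c* was lost with RPKM>10. Other scalings shifted log2 ratios by up to 0.12, and with the median of ratios or TMM *Gata6* and *Mef2c* were lost, leaving 4 genes above endoderm and 6 above epiblast. Counted in reads, the shares of the 9 genes were 23.7% in endoderm, 69.0% in mesoderm and 7.33% in epiblast. Scaling to the same upper quartile turned the ratio of *Tbx5* between endoderm and epiblast from 1.03 (0.0743 to 14.1) to 0.945, from 2 reads in each, so it has no direction. A pseudocount of 1 RPKM moved 22 of 27 ratios beyond their counting intervals, and *Tbx5* in mesoderm was then 3.22 times endoderm, since it is low throughout. The direction of no other ratio turned under these alternatives. Of the 18 places among the nearest genes in pattern, 2 for each cardiac factor, 12 kept their gene when chosen among genes above 1 RPKM.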

Other observations

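Several genes of the mature heart muscle, named here after their values were seen, were called in no pair. They do not stand for the list of 25 contractile and cardiomyocyte genes. Of that list, mesoderm held the highest level of 18 genes, endoderm of 5 and epiblast of 2. The heavy chain genes *Myh6*, at 0.509, 0.362 and 1.54 RPKM in endoderm, mesoderm and epiblast, and *Myh7*, at 2.51, 0.137 and 0.174, were below 5 RPKM in every layer, and 13.3% of the exonic bases of *Myh7* overlap antisense genes. *Ttn* had 11, 15 and 15 reads, *Nppa* 2, 3 and 0, *Mybpc3* 0, 5 and 0, and *Myocd*, a coactivator of muscle genes, 38, 184 and 9. *Myl3* had 72, 2 and 7 reads and overlaps *Pth1r*, which had 3671, 2179 and 241. The sarcoplasmic calcium pump gene *Atp2a2*, at 75.4, 89.6 and 72.0 RPKM, and the tropomyosin gene *Tpm1*, at 168.1, 211.0 and 121.9, which many cells use, were called in no pair.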
